A study of Mus musculus with 12 samples.

Results

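The genes described are the peroxide-removing enzymes of the mouse spleen, namely the peroxiredoxins Prdx1 to Prdx6, the glutathione peroxidases Gpx1 and Gpx4 and catalase (Cat), together with the mitochondrial superoxide dismutase Sod2. They were chosen by gene symbol, and each gene was represented by its probe with the highest mean over the 12 arrays. Of the 10 genes, 8 had a probe among the 19057 gene symbols on the array, and Prdx5 and Prdx6 were not analysed here. RNA was taken from spleens of male C57BL/6J mice bought at 6 weeks of age, acclimatized for 3 weeks and then fed 1 of 3 diets for 8 weeks, with 4 mice and 4 arrays per diet. The HFD-ED diet was a high fat diet with 15% fat by weight, made of 10% coconut oil, 3% corn oil and 2% of an oil rich in eicosapentaenoic and docosahexaenoic acid (EPA/DHA). HFD-CO had as much fat, from 5% corn oil and 10% coconut oil, and both carried 1% cholesterol. Control feed had 5% fat, from 2.5% each of corn and coconut oil, and no added cholesterol. The mice for the arrays had been selected by the authors within each diet on body weight, plasma triglyceride and plasma cholesterol, so the 4 mice of a diet are not a random draw from it.

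Hydrogen peroxide forms when superoxide dismutases convert superoxide, and it is then removed by catalase, by glutathione peroxidases that use glutathione, and by peroxiredoxins that are mostly recharged by thioredoxin. Red blood cells carry oxygen on haem iron and hold large amounts of Prdx2, Gpx1 and catalase, while Prdx3 and Sod2 work in the matrix of mitochondria. The spleen of the mouse filters old red cells and also makes new ones in its red pulp, so enzymes of both kinds are read from the same tissue RNA. In whole spleen RNA, more cells of a type and more RNA per cell cannot be told apart.

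Values were log2 expression values from Illumina MouseWG-6 v2.0 BeadChips, with 1 array per mouse, and ranged from 6.95 to 14.79. The extraction text of the labels names skeletal muscle, whereas the sample titles and tissue label name spleen. Muscle genes checked for this reason lay near the lowest array value in all 12 mice, with Acta1 between 7.03 and 7.26 and Tnnt3 between 7.08 and 7.20. The T cell receptor chain genes Cd3e and Cd3g were between 9.51 and 10.62 and between 9.87 and 10.78. Arrays of 1 diet correlated with each other at r between 0.971 and 0.995. Pancreatic acinar genes were high in HFD-CO mice 1 and 4, with the mean of 15 such genes reaching 12.80 in HFD-CO, against a highest mean of 8.04 in both HFD-ED and control mice.

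None of the 8 enzymes passed an adjusted p of 0.05 in any comparison of diets, and the sizes below are given with that limit. In HFD-ED compared with control, the means of 7 of the 8 were higher and 1 was lower, with a median difference of 0.31 on the log2 scale. Over the 5003 genes with a mean of at least 8, a bound that all 8 enzymes pass, the median difference was -0.05 and 39.7% had a higher mean. The differences were 0.83 for Prdx2, 0.71 for Prdx3, 0.54 for Gpx1, 0.34 for Cat and 0.28 for Gpx4, whereas those of Prdx4, Sod2 and Prdx1 were 0.17, 0.16 and -0.07. Over all 45281 probes, 0% passed an adjusted p of 0.05 in HFD-ED against control, the same share as among the enzymes. At an unadjusted p under 0.05, 4620 probes differed. By that looser measure Prdx3, Cat and Gpx1 were higher, 3 of 8 enzymes, against 10.4% of the genes with a mean of at least 8.

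**Figure D1:**
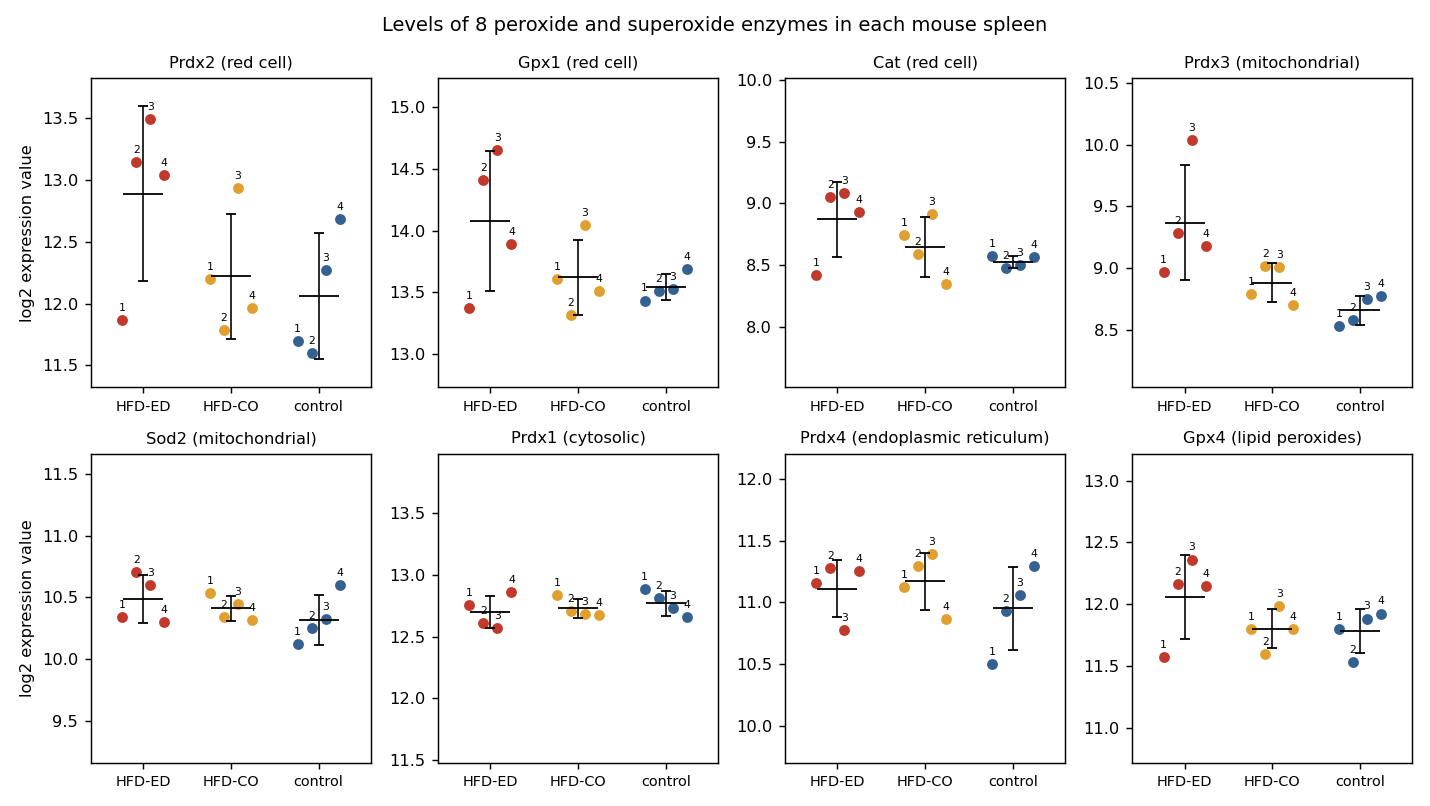
Log2 expression value of each enzyme (y axis) in each mouse, by diet (x axis), with points numbered by mouse, long bars for diet means and error bars for SD over 4 mice. Every panel spans the same 2.5 log2 units. HFD-ED mice 2, 3 and 4 lie above HFD-ED mouse 1 for Prdx2, Gpx1, Cat, Prdx3 and Gpx4.

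Prdx2, the peroxiredoxin of the cytosol that is among the most abundant proteins of red cells, was 11.87, 13.15, 13.50 and 13.04 in HFD-ED mice 1 to 4. It was 12.20, 11.79, 12.94 and 11.96 in HFD-CO mice and 11.69, 11.60, 12.27 and 12.69 in control mice. HFD-ED mice 2 to 4 lay above every mouse of both other diets, and mouse 1 lay within the range of both. The mean was 12.89 ± 0.71 in HFD-ED, 12.22 ± 0.51 in HFD-CO and 12.06 ± 0.51 in control (SD, n = 4 each). HFD-ED exceeded control by 0.83 ± 0.38 (SE), a fold of 1.77, with a 95% interval from -0.0081 to 1.66 and an adjusted p of 0.494 in limma. Against HFD-CO the difference was 0.67 ± 0.38, with an interval from -0.17 to 1.50 and an adjusted p of 0.635. The other Prdx2 probes gave HFD-ED minus control differences of 0.84 ± 0.29 and 0.42 ± 0.13, so all 3 probes pointed the same way. Their adjusted p-values in limma were 0.380 and 0.341.

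Gpx1, the selenium-dependent glutathione peroxidase of the cytosol, followed the same mice. It was 13.38, 14.41, 14.65 and 13.89 in HFD-ED mice 1 to 4, against 13.60, 13.32, 14.04 and 13.51 in HFD-CO mice and 13.43, 13.51, 13.53 and 13.69 in control mice. HFD-ED mouse 1 lay below every control mouse and the other HFD-ED mice lay above every control mouse. The spread over mice was 0.57 (SD) in HFD-ED, 0.31 in HFD-CO and 0.11 in control. HFD-ED exceeded control by 0.54 ± 0.24 (SE), with a 95% interval from 0.00057 to 1.08 and an adjusted p of 0.489. It exceeded HFD-CO by 0.46 ± 0.24, with an interval from -0.078 to 1.002 and an adjusted p of 0.611.

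Catalase, which splits hydrogen peroxide into water and oxygen and sits in peroxisomes of most cells and in the cytosol of red cells, showed the same order of HFD-ED mice on a smaller scale. Cat was 8.42, 9.05, 9.08 and 8.93 in HFD-ED mice 1 to 4, against 8.74, 8.59, 8.91 and 8.35 in HFD-CO mice and 8.57, 8.47, 8.50 and 8.56 in control mice. Mice 2 to 4 on HFD-ED were above every mouse of both other diets, and HFD-ED mouse 1 was below every control mouse. The difference of HFD-ED from control was 0.34 ± 0.15 (SE), with a 95% interval from 0.019 to 0.67 and an adjusted p of 0.461. The difference of HFD-ED from HFD-CO was 0.22 ± 0.15, with an interval from -0.10 to 0.55 and an adjusted p of 0.694. A dimmer Cat probe with a mean of 7.23 gave 0.05 ± 0.02 against control, on a part of the scale where the authors' transformation compresses differences.

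Among the mitochondrial enzymes, Prdx3, the peroxiredoxin of the mitochondrial matrix, was the only one of the 8 genes for which all 4 HFD-ED mice lay above all control mice. It was 8.97, 9.28, 10.04 and 9.18 in HFD-ED mice 1 to 4. It was 8.79, 9.01, 9.01 and 8.70 in HFD-CO mice, against 8.53, 8.58, 8.75 and 8.77 in control mice. Such a separation, 1 of 8 enzymes, was found for 1.82% of all probes in this comparison. Prdx3 was 0.71 ± 0.19 (SE) higher in HFD-ED than in control, a fold of 1.64, with a 95% interval from 0.29 to 1.13. Its unadjusted p in limma was 0.00347 and its adjusted p 0.300. Against HFD-CO the difference was 0.49 ± 0.19, with an interval from 0.067 to 0.91, an unadjusted p of 0.0270 and an adjusted p of 0.491. HFD-ED mouse 3 was the highest of the 12 mice for Prdx3, and without it the difference from control was 0.48.

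Sod2, the manganese superoxide dismutase that makes hydrogen peroxide from superoxide in the same compartment, did not show this separation. It was 10.34, 10.70, 10.60 and 10.30 in HFD-ED mice 1 to 4, against 10.54, 10.34, 10.45 and 10.32 in HFD-CO mice and 10.12, 10.25, 10.32 and 10.60 in control mice. The 3 diets overlapped throughout. The difference of HFD-ED from control was 0.16 ± 0.11 (SE), with a 95% interval from -0.086 to 0.41 and an adjusted p of 0.686, and that from HFD-CO was 0.08 ± 0.11, with an interval from -0.17 to 0.32 and an adjusted p of 0.899. The upper bound against control, 0.41, lies below the Prdx3 difference, but the difference between both genes was not tested.

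**Figure D2:**
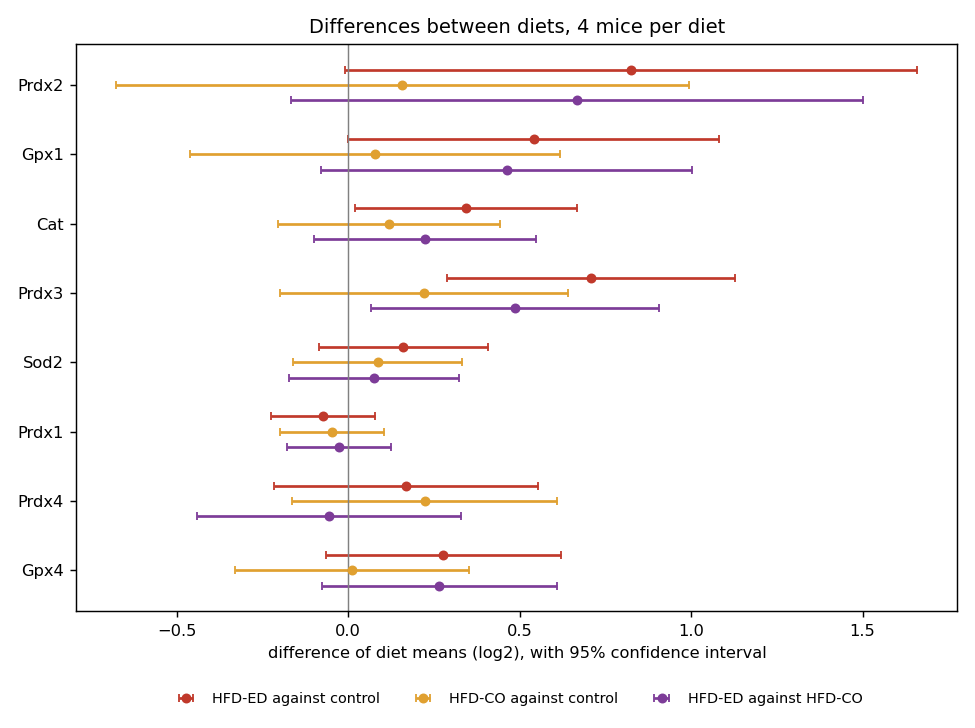
Difference between diet means on the log2 scale (x axis) for each enzyme (y axis), with 95% confidence intervals from limma, for each pair of diets. The intervals of Prdx3 exclude 0 in both comparisons of HFD-ED before adjustment, whereas all intervals of HFD-CO against control include 0.

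Gpx4, which reduces lipid hydroperoxides inside membranes and so limits the cell death called ferroptosis, was 11.58, 12.16, 12.36 and 12.15 in HFD-ED mice 1 to 4. It was 11.80, 11.60, 11.99 and 11.80 in HFD-CO mice and 11.80, 11.53, 11.88 and 11.92 in control mice. Again HFD-ED mice 2 to 4 stood above all others and mouse 1 did not. HFD-ED exceeded control by 0.28 ± 0.16 (SE; 95% interval from -0.065 to 0.62, adjusted p 0.587) and HFD-CO by 0.27 ± 0.16 (95% interval from -0.076 to 0.61, adjusted p 0.645). The probe next in brightness gave 0.47 ± 0.19 against control (adjusted p 0.441), and the dimmest probe, with a mean of 7.11, gave -0.00032.

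Prdx1, a peroxiredoxin of the cytosol and nucleus found in most cells, varied little. It was 12.76, 12.61, 12.57 and 12.86 in HFD-ED mice 1 to 4, against 12.84, 12.70, 12.69 and 12.67 in HFD-CO mice and 12.89, 12.81, 12.73 and 12.66 in control mice. The difference of HFD-ED from control was -0.07 ± 0.07 (SE), and its 95% interval, from -0.22 to 0.078, holds no difference as large as that of Prdx2. The adjusted p was 0.790. HFD-ED mouse 3, the highest mouse for Prdx2, Gpx1, Cat and Prdx3, was the lowest of the 12 for Prdx1.

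Prdx4, the peroxiredoxin of the endoplasmic reticulum, was 11.15, 11.28, 10.78 and 11.25 in HFD-ED mice 1 to 4. It was 11.13, 11.29, 11.39 and 10.87 in HFD-CO mice and 10.50, 10.93, 11.06 and 11.29 in control mice. Here HFD-ED mouse 3 was the lowest of its diet and control mouse 1 the lowest of all. The diets overlapped, with a difference of HFD-ED from control of 0.17 ± 0.17 (SE; 95% interval from -0.22 to 0.55, adjusted p 0.817) and from HFD-CO of -0.06 ± 0.17 (95% interval from -0.44 to 0.33, adjusted p 0.956). Without control mouse 1 the difference from control was 0.02, and without control mouse 4 it was 0.28.

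The stretches before the start sites of the 8 genes were searched for 2 kinds of motif, the antioxidant response element TGACNNNGC that NRF2 binds and the sites AGATAA and TGATAA of GATA factors, on both strands of windows of 300 bases around each start. Among 32851 windows of that length in RefSeq on GRCm38.p6, 12.4% hold the first and 18.6% one of the second. Of the 8 genes only Prdx1 held the first and only Gpx4 the second. The 250 bases before the start are shown for these genes, with the match in capitals, and for Prdx2, the gene with the widest difference and no match. The Prdx1 match lies on the opposite strand from position -133 to -125 relative to the start, and the Gpx4 match, in 2 overlapping windows of its 4 annotated start sites, at -145 to -140 in the window shown. They come from the plus strand at chr4:116685349-116685598 (Prdx1), chr10:80053315-80053564 (Gpx4) and chr8:84969372-84969621 (Prdx2).
Prdx1: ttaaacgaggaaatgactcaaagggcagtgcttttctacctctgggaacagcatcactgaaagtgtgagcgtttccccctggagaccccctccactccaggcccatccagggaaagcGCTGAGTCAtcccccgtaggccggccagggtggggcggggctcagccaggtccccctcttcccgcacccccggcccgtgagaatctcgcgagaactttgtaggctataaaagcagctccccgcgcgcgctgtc
Gpx4: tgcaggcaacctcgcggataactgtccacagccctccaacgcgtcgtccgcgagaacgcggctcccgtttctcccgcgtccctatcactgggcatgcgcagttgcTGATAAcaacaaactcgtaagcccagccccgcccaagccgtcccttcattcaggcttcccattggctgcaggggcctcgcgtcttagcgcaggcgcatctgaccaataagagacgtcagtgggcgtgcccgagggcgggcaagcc
Prdx2: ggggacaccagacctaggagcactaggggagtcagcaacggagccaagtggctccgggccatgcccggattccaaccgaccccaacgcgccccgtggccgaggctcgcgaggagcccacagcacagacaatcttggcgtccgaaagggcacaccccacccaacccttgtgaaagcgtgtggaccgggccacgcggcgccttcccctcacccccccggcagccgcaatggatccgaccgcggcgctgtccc
A match is a description of these letters only, and no binding was measured.

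HFD-CO compared with control asks what the high fat diet did without EPA/DHA. All 8 differences were between -0.05 and 0.22, with adjusted p-values of 1 in limma. The median was 0.12 for the red cell enzymes Prdx2, Gpx1 and Cat and 0.15 for the mitochondrial enzymes Prdx3 and Sod2. The red cell median rested on single mice, at -0.062 without HFD-CO mouse 3, 0.22 without HFD-CO mouse 4 and 0.043 without control mouse 1. The intervals were wide, however, from -0.68 to 0.99 for Prdx2 and from -0.20 to 0.64 for Prdx3, so a difference as large as that of HFD-ED lies within the interval of Prdx2. HFD-CO mouse 3 was the highest of its diet for Prdx2, Gpx1, Cat, Gpx4 and Prdx4. None of the 8 enzymes separated upward between these diets (1.44% of all probes did), none was higher at an unadjusted p under 0.05 (2.02% of genes with a mean of at least 8), and 0% of probes passed the adjusted threshold.

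HFD-ED compared with HFD-CO, which differ in the EPA/DHA oil that replaced part of the corn oil, gave a median of 0.46 for the red cell enzymes and of 0.28 for the mitochondrial enzymes. None of the 8 enzymes separated upward (1.73% of all probes), Prdx3 alone was higher at an unadjusted p under 0.05 (10.6% of genes with a mean of at least 8), and 0.00221% of probes, a single probe and none of the enzymes', passed the adjusted threshold. Both comparisons that involve HFD-ED share its 4 mice. Without the HFD-CO mice 1 and 4, which were high in pancreatic genes, the medians were 0.40 for the red cell enzymes and 0.22 for the mitochondrial enzymes.

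HFD-ED mouse 1 was the lowest of its diet for Prdx2, Prdx3, Gpx1, Cat and Gpx4, and mouse 3 the highest. By Dixon's test 0 of 24 groups of 1 enzyme and 1 diet held a distant mouse. With 4 mice per group that test calls only very wide gaps, so it cannot show that no mouse was distant. Without mouse 1, the difference of HFD-ED from control was 1.17 for Prdx2, 0.84 for Prdx3, 0.78 for Gpx1, 0.49 for Cat and 0.44 for Gpx4. The adjusted p-values in limma were then 0.122, 0.0706, 0.0957, 0.0715 and 0.0965, still above 0.05, while 87 of all probes passed it. Without mouse 3 instead, the differences were 0.62 for Prdx2, 0.48 for Prdx3, 0.35 for Gpx1, 0.27 for Cat and 0.18 for Gpx4. For Prdx3, mouse 1 was the lowest of its diet but remained above every control mouse, whereas for Gpx1 and Cat it was below every control mouse.

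The order of mice in Prdx2, Gpx1 and Gpx4 was close to that of the mean of the erythroid marker genes. Of 43 erythroid markers 37 were measured, 31 of them with a mean of at least 7.5, while Gata1 and Epb42 were near the lowest values of the array. All 37 had higher means in HFD-ED than in control, with a median difference of 0.86, 22 of them at an unadjusted p under 0.05, against 10.4% of the genes with a mean of at least 8, and 0 at an adjusted one. The mean deviation of the 37 markers from their 12-mouse means was -0.52, 0.80, 1.36 and 0.73 in HFD-ED mice 1 to 4, between -0.69 and 0.32 in HFD-CO mice and between -0.65 and 0.23 in control mice. HFD-ED mouse 1 was thus low in erythroid markers as well, and HFD-CO mouse 3 the highest of its diet.

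**Figure D3:**
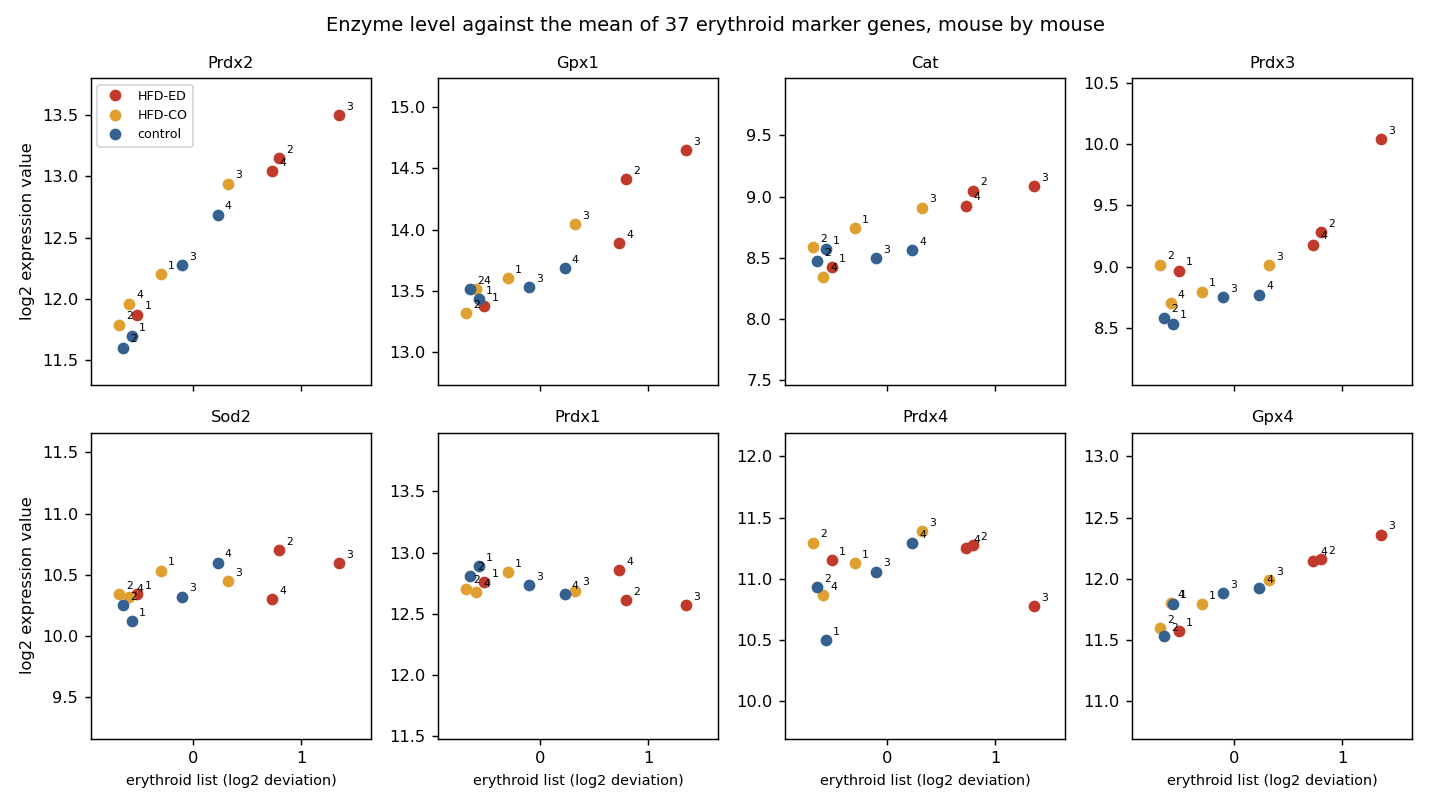
Log2 expression value of each enzyme (y axis) against the mean log2 deviation of 37 erythroid markers (x axis), with 1 point per mouse, numbered by mouse and coloured by diet. Every panel spans the same 2.5 log2 units on the y axis. Prdx2 follows the markers with r = 0.980 over 12 mice, whereas Prdx1 does not follow them upward, with r = -0.511.

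Over the 12 mice, Pearson's r with the erythroid mean was 0.980 for Prdx2, 0.953 for Gpx4, 0.935 for Gpx1, 0.876 for Cat, 0.828 for Prdx3 and 0.656 for Sod2. These are descriptions over mice that share diets, arrays and a common normalization. Over the 8 mice not fed HFD-ED, r was 0.971 for Prdx2, 0.851 for Gpx1 and 0.849 for Gpx4, and it was 0.679 for Sod2, 0.587 for Cat and 0.407 for Prdx3. Leaving out the 2 mice farthest from the median erythroid mean gave 0.973 for Prdx2, 0.901 for Gpx4, 0.870 for Gpx1, 0.755 for Cat, 0.577 for Prdx3 and 0.392 for Sod2. Spearman's rho over 12 mice was 0.951 for Prdx2, 0.902 for Gpx4, 0.921 for Gpx1, 0.734 for Cat and 0.664 for Prdx3. Prdx1 had r = -0.511 over 12 mice, -0.455 over the 8 and -0.025 without the farthest 2. Prdx4 had r = 0.189, 0.597 and 0.549. The part of the erythroid markers in the enzyme differences was not tested.

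Prdx3 was also set against other lists. With 28 genes of mitochondrial content its r was 0.729 over 12 mice and 0.523 over the 8 mice not fed HFD-ED. For Sod2 these were 0.169 and -0.018. The red cell enzyme Cat had 0.639 and 0.644, so this was not particular to Prdx3. With 10 B cell genes the r of Prdx3 was -0.964 and -0.715. It was -0.782 and -0.473 for Prdx2, -0.800 and -0.157 for Gpx1 and -0.761 and -0.237 for Gpx4. For Prdx4 it was -0.062 and -0.734, so the value over the 8 mice was not particular to Prdx3. With 17 neutrophil genes the r of Prdx3 was 0.838 and -0.139. It was 0.804 and 0.502 for Prdx2, 0.821 and 0.197 for Gpx1 and 0.846 and 0.601 for Gpx4. With 18 genes of dividing cells the r of Prdx3 was 0.923 and 0.716. This was not particular to Prdx3 either, with 0.936 and 0.924 for Prdx2, 0.679 and 0.800 for Sod2 and 0.283 and 0.858 for Prdx4. Dividing-cell genes deviated by -0.059 to 0.91 in HFD-ED mice, -0.42 to 0.16 in HFD-CO mice and -0.54 to 0.051 in control mice, and 16 of the 18 had a higher mean in HFD-ED than in control. B cell genes deviated by -0.37 to 0.018 in HFD-ED mice, by -0.0041 to 0.14 in HFD-CO mice and by -0.014 to 0.14 in control mice. Neutrophil genes, with all 17 means higher in HFD-ED than in control, deviated by -0.23 to 1.69 in HFD-ED mice, by -0.65 to -0.26 in HFD-CO mice and by -0.54 to 0.21 in control mice. Megakaryocyte and platelet genes, with all 11 means higher in HFD-ED than in control, deviated by 0.032 to 0.69 in HFD-ED mice, by -0.31 to -0.18 in HFD-CO mice and by -0.16 to -0.038 in control mice, so that the HFD-ED mice lay above all others. Red pulp macrophage genes, with 11 of 13 means lower in HFD-ED than in control, deviated by -0.18 to 0.047 in HFD-ED mice, by -0.066 to 0.054 in HFD-CO mice and by -0.017 to 0.15 in control mice. Among the genes with a mean of at least 8, 39.7% had a higher mean in HFD-ED than in control. The part of these lists in the enzyme values was not tested.

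Genes most like each enzyme were taken as the 3 with the highest r over the 12 mice among 5002 genes. For Prdx2 these were Urod, Aqp1 and Slc38a5, with r from 0.989 to 0.990, of which Urod and Aqp1 belong to the erythroid markers. For Gpx1 they were Marchf2, Gadd45a and Tfdp2 (0.977 to 0.987) and for Gpx4 they were Glrx5, Atpif1 and Ppp1r15a (0.964 to 0.976). Prdx3 was most like Cenpv, Yod1 and Cenpw (0.948 to 0.961), and Cat most like Ndufv1, Snx15 and Cmpk2 (0.929 to 0.933). The values were lower for Sod2 with Smim8, Tab1 and Tecr (0.850 to 0.884), Prdx1 with Pdlim3, Dapp1 and Ccdc59 (0.857 to 0.902) and Prdx4 with Oosp1, Ssr2 and Sdf2l1 (0.836 to 0.875). For Prdx4 with Ssr2, r was 0.984 over the 8 mice not fed HFD-ED.

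Among the enzymes themselves, Prdx2 and Gpx4 had r = 0.944, Prdx2 and Gpx1 r = 0.915 and Gpx1 and Gpx4 r = 0.896 over 12 mice. Prdx3 and Sod2, which share a compartment, had r = 0.576. Over the same mice the r of Prdx3 was 0.831 with Gpx1, 0.789 with Prdx2, 0.772 with Cat and 0.747 with Gpx4. Over the 8 mice not fed HFD-ED these were 0.383, 0.554, 0.593 and 0.238, against 0.537 with Sod2.

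The enzymes depend on other genes, which were taken from lists of the pathway, and 0 genes of these lists passed an adjusted p of 0.05 in any comparison. At an unadjusted p under 0.05 in HFD-ED against control, 3 of 9 glutathione genes, 1 of 8 of NADPH supply, 3 of 13 of NRF2, 2 of 9 of selenoprotein synthesis, 2 of 9 other peroxidases and dismutases and 4 of 28 of mitochondrial content had a higher mean, and 1 of 5 of the NADPH oxidase and 1 of 15 of peroxisomes had a lower one. Of the genes with a mean of at least 8, 10.4% had a higher mean at that p and 26.5% differed in either direction. This background leaves out the dim genes these lists hold. At any p, 39.7% of the genes with a mean of at least 8 had a higher mean in HFD-ED than in control. Of 11 genes of the thioredoxin system, which recharges peroxiredoxins, 7 had a higher mean in HFD-ED than in control, with a median difference of 0.02. Only Txnrd2, the mitochondrial thioredoxin reductase that serves Prdx3, was at an unadjusted p under 0.05, with a difference of 0.70 ± 0.30 (SE). It was 8.17, 9.24, 9.83 and 9.15 in HFD-ED mice 1 to 4, against 8.13 to 8.82 in HFD-CO mice and 8.22 to 8.73 in control mice. As for Gpx1, mouse 1 of HFD-ED was below every control mouse. Txn2, the thioredoxin of mitochondria, differed by 0.08 ± 0.07.

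Of 9 genes that make or reduce glutathione, which glutathione peroxidases use, 6 had a higher mean in HFD-ED than in control and the median difference was 0.08. Gclm, the modifier subunit of the enzyme that starts glutathione synthesis, was 8.36, 10.38, 10.73 and 9.79 in HFD-ED mice 1 to 4, against 8.43 to 9.46 in HFD-CO mice and 8.34 to 9.09 in control mice. Its difference from control was 1.12 ± 0.44 (SE, adjusted p 0.432). Glrx5, a mitochondrial glutaredoxin that serves iron-sulfur cluster assembly, was 10.35, 11.78, 12.26 and 11.80 in HFD-ED mice 1 to 4, with a difference of 1.02 ± 0.40 (adjusted p 0.434). The catalytic subunit gene Gclc differed by 0.02 ± 0.03, with a mean of 7.26 in the compressed part of the scale. Glrx2 differed by 0.21 ± 0.08 and Gss, glutathione synthetase, by 0.08 ± 0.04 at a mean of 7.22.

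**Figure D4:**
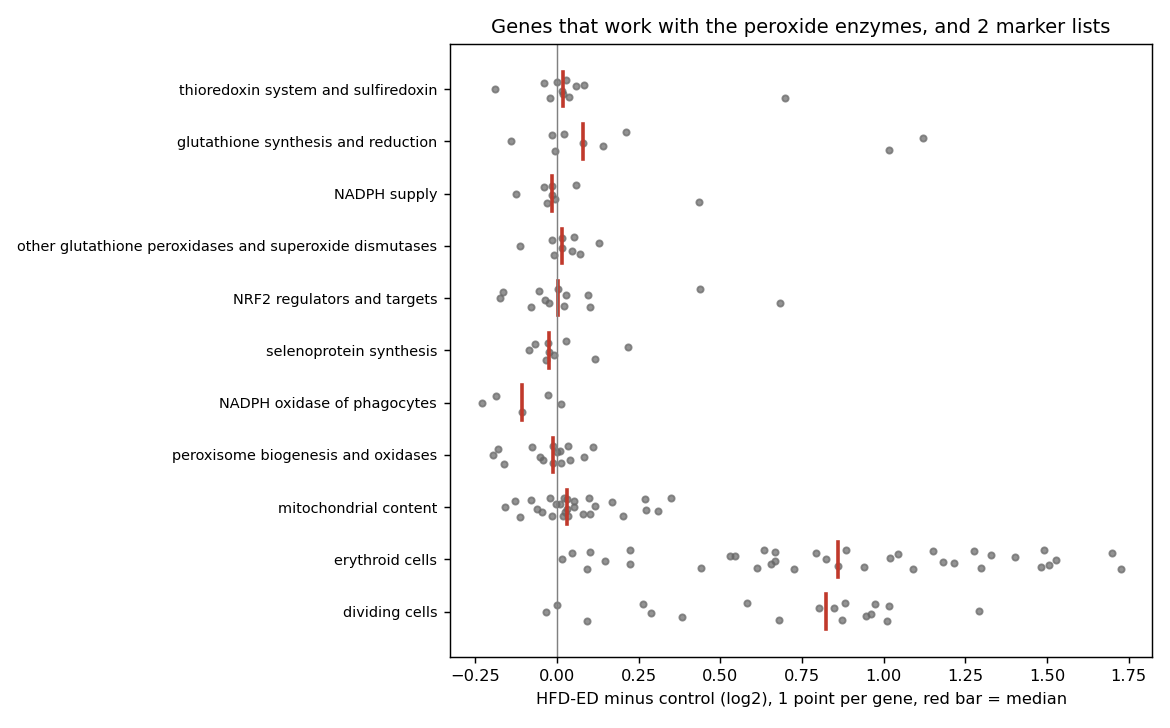
Difference of HFD-ED from control on the log2 scale (x axis) for each measured gene of 9 pathway lists and of the erythroid and dividing-cell markers (y axis), with 1 point per gene and a red bar at the list median. Medians of the pathway lists lie between -0.11 and 0.08, whereas those of the erythroid and dividing-cell markers are 0.86 and 0.82. Differences of dim genes are compressed, so the medians are not on an equal footing, and genes with a mean of at least 7.5 are 5 of 11 in the thioredoxin list, 3 of 9 in the selenoprotein list, 4 of 9 among other peroxidases and dismutases and 4 of 8 in the NADPH list, but 31 of 37 among the erythroid markers.

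NADPH feeds both systems, and of its 8 supply genes Tkt, the transketolase of the pentose phosphate pathway, differed by 0.43 ± 0.15 (SE, adjusted p 0.381), while the list median was -0.02. Of 13 regulators and targets of NRF2, the factor that activates antioxidant genes, 7 had a higher mean and 6 a lower one, with a median of 0.0018. Blvrb, the biliverdin reductase B of red cells, differed by 0.68 ± 0.28 and Mafg, a partner of NRF2 and of the erythroid factor Nfe2, by 0.44 ± 0.18. Nqo1 differed by 0.10 ± 0.04, at a mean of 7.205 in the compressed part of the scale. The ferritin light chain gene Ftl1 differed by -0.18 ± 0.08, with all 4 HFD-ED mice below all control mice. The share of all probes with such a downward separation was not counted here. Gpx1 and Gpx4 carry selenocysteine, and 9 genes of its synthesis and insertion were measured. Of these, Secisbp2 and Sephs2 had all 4 HFD-ED mice above all control mice, a separation found for 1.82% of all probes. Their differences were 0.12 ± 0.03 and 0.22 ± 0.06, with adjusted p-values of 0.277 and 0.310 in limma. The means of both genes, 7.51 and 7.49, lie in the compressed part of the scale.

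Of 9 other glutathione peroxidases and superoxide dismutases, Sod1 of the cytosol differed by 0.13 ± 0.10 and Gpx3 of plasma by -0.11 ± 0.11. The genes of this list at an unadjusted p under 0.05 were Gpx5 and Gpx6. They differed by 0.07 ± 0.02 and 0.05 ± 0.02, at means of 7.11 and 7.12 near the lowest array value. Of 5 subunit genes of the NADPH oxidase of phagocytes, which makes superoxide, 4 had a lower mean. Only 39.7% of the genes with a mean of at least 8 had a higher mean, so lower means were common. Ncf4 differed by -0.23 ± 0.08 (adjusted p 0.395 in limma), with all 4 HFD-ED mice below all control mice. How many of all probes separated downward in this way was not counted. Of 15 peroxisome genes 7 had a higher mean and the median was -0.01, with Pex13 at -0.18 ± 0.08. Of 28 genes of mitochondrial content 19 had a higher mean and the median was 0.03. The prohibitin gene Phb2 was the one with the smallest adjusted p of all these lists, 0.193, at a difference of 0.35 ± 0.06. Phb2 was 10.39, 10.60, 10.47 and 10.53 in HFD-ED mice 1 to 4, against 10.21 to 10.42 in HFD-CO mice and 10.06 to 10.23 in control mice. Its HFD-ED mice, mouse 1 included, all lay above all control mice, as was found for 1.82% of all probes. Uqcrc1, a core subunit of respiratory complex III, differed by 0.31 ± 0.10.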

How the data were processed

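Bead intensities read with GenomeStudio were turned by the authors into the deposited log2 values with lumi (version 2.18.0 per the labels), by a variance-stabilizing transformation and quantile normalization. The transformation compresses differences of dim probes, and 75.2% of probes had a mean under 7.5. The values were used as deposited. All 45281 probes of the 12 arrays were fitted using limma 3.58.1 under R 4.3.3 (lmFit, eBayes, 1 coefficient per diet, two-sided), with Benjamini-Hochberg adjustment over all probes in each of 3 comparisons. Symbols came from the platform annotation, in which 34885 probes have 1 symbol, 18 several and 10378 none. The fit was tested on simulated data.

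Genes named were the members, up to 4 genes with the smallest p in HFD-ED against control of each pathway list, and the 3 genes most like each member. Gclc, the muscle and T cell receptor genes, and the dividing-cell and B cell lists set against Prdx3 were chosen after their values were seen. Correlations with the neutrophil list were also outside the plan, which named only the erythroid and mitochondrial content lists. The members and lists were chosen with earlier results of these data known. Alternatives were a replicate block, other variance models, array weights, a filter on dim probes, other probe choices, further normalization, fits restricted to a pair of diets, leaving out each mouse and the stricter adjusted p of 0.001. Probe sequences were not used here, so binding to related gene copies was not assessed. The paper states that mice were caged in groups, but neither it nor the labels give the cage of each array mouse. The p-values weigh differences against the spread between these mice and treat the mice as independent. An effect of shared cages therefore cannot be told apart from diet. With 4 arrays per diet, precision is limited by their number.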

Additional observations from a re-analysis of the deposited data

How the results depend on the processing

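In every alternative tried, 0 of the 8 enzymes passed an adjusted p of 0.05 in any comparison. The red cell median of HFD-ED against control was 0.54 with all mice, 0.78 without HFD-ED mouse 1 and 0.35 without HFD-ED mouse 3. The mitochondrial median of that comparison was 0.44 with all mice, 0.53 without HFD-ED mouse 1 and 0.30 without HFD-ED mouse 3. The red cell median of HFD-CO against control turned to -0.062 without HFD-CO mouse 3. Of 504 values of single enzymes under alternatives, 493 kept their direction and 11 reversed it. Several alternatives cannot change a difference, such as the replicate block, the filter on dim probes and the fits restricted to a pair of diets. The 493 therefore include values that could not reverse. The reversals were in differences that lay between -0.06 and 0.16 in the main fit, the largest being Prdx2 in HFD-CO against control. Leaving out each mouse in turn, the HFD-CO minus control difference ranged between -0.081 and 0.37 for Prdx2, -0.062 and 0.18 for Gpx1 and -0.073 and 0.077 for Gpx4, with the opposite sign for all 3 without HFD-CO mouse 3 and for Gpx4 also without control mouse 2. The HFD-ED minus HFD-CO difference ranged between -0.079 and 0.016 for Prdx1 and between -0.16 and 0.058 for Prdx4, with the opposite sign without HFD-ED mouse 3 for both, HFD-ED mouse 2 or HFD-CO mouse 1 for Prdx1 and HFD-CO mouse 3 for Prdx4. That of Prdx1 was also 1.9e-05 with array weights and 0.0048 after cyclic loess. The cause was not tested. Leaving out each mouse, Prdx2 in HFD-ED against control ranged between 0.62 and 1.17 and Prdx3 between 0.48 and 0.84. Averaging all probes of a gene, a step that mixes in compressed dim probes, lowered Cat to 0.19.

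Mice that carry the same number in different diets are not paired by the labels, and 4 of 12 such pairs correlated above 0.1. With the number as a block, 0 of the 8 enzymes passed in any comparison, and the smallest adjusted p in HFD-ED against control was 0.212.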
